A study of Homo sapiens with 3 samples.

Results

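The subunits of the SWI/SNF chromatin remodelling complexes were examined in HCT116 cells, a human colorectal cancer cell line, after knockdown of SMARCA4, one of the catalytic subunits of these complexes. The members were the non-control probes whose gene name in the array files was that of a BAF, PBAF or ncBAF subunit or of the BCL11 factors associated with BAF. They comprised 30 of the 43317 gene names and 48 of the 58201 probes. BICRA and BICRAL were found under their older names, GLTSCR1 and GLTSCR1L. Cells were grown in serum-supplemented McCoy's 5A medium and transfected by Lipofectamine 3000 with small interfering RNA against SMARCA4 (SMARCA4-KD1 and SMARCA4-KD2) or with the scrambled negative control (NC). Total RNA of each of the 3 conditions was labelled with Cy3 and hybridised to 1 Agilent 60-mer array, so there were no replicates. SMARCA4 is named by the sample titles and the siRNA protocol, whereas the treatment field names PRMT1 and gives the number of the knockdown. The knockdown was transient, in 1 cell line, and which of the 2 listed siRNAs served in which condition is not given in the sources used here.

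SWI/SNF complexes use the energy of ATP hydrolysis to slide or evict nucleosomes, and each complex carries either SMARCA4 or its paralog SMARCA2 as the motor. A core built around SMARCC1, SMARCC2 and a SMARCD paralog is shared. ARID1A, ARID1B and a DPF protein mark BAF, while ARID2, PBRM1, BRD7 and PHF10 mark PBAF. GLTSCR1, GLTSCR1L and BRD9 mark ncBAF, which lacks SMARCB1 and SMARCE1. Paralogous subunits such as SMARCD1, SMARCD2 and SMARCD3 occupy the same position in alternative assemblies, and several subunits are recurrently mutated in human cancers.

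Across the arrays, 45.7% to 47.3% of probes were well above background, and 29334 probes were so on at least 1 array and were kept. The epithelial markers chosen for this line were present, with 6 of 7 genes well above background on every array and VIL1 on none. Their summed signal was 439624 and 428213 in the knockdowns and 403439 in NC. Of 11 markers of fibroblasts, leukocytes and endothelial cells, 6 had a probe well above background on every array and 5 (COL1A2, DCN, LUM, CD3E and PECAM1) had none on any array, and their summed signal ranged from 683 to 838. Their part in the results was not tested. The knockdowns were hybridised on 1 slide and NC on another, so that slide and knockdown cannot be told apart in any comparison with NC. In RNA from whole cultures, fewer cells expressing a gene and less RNA per cell cannot be told apart either.

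Of the 48 member probes, 42 passed the filter and 40 were well above background on all 3 arrays. These 42 probes covered 29 of the 30 genes. The exception was ACTL6B, the actin-related subunit typical of neurons, with a signal of 3.38 and 11.6 in the knockdowns and 8.46 in NC, not well above background on any array. The other 5 probes that did not pass belonged to genes with another probe that did, namely 1 probe each of DPF3, BCL7C and BCL11B and 2 of BCL11A. Transcripts of all 3 assemblies were thus measured in these cells, including every probed subunit that distinguishes BAF, PBAF or ncBAF. Each gene was on the array in 1 to 4 probes, and all 43 member probes with an accession in the RefSeq table matched their own gene symbol there.

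**Figure D1:**
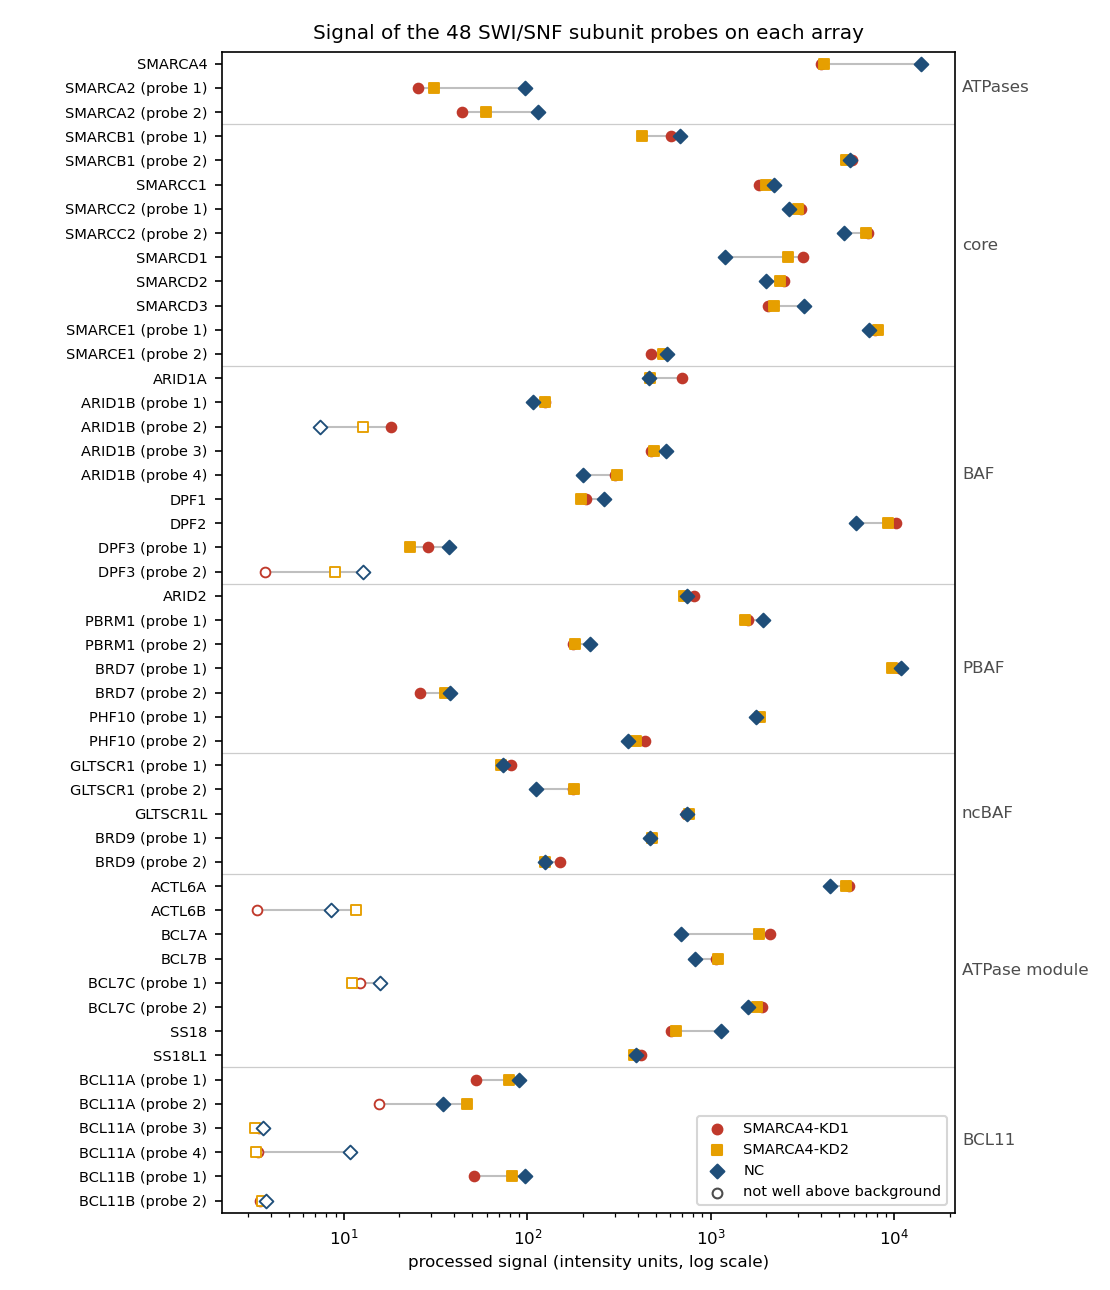
Processed signal of each of the 48 member probes on each array, in intensity units on a log axis, grouped by role in the complexes. Each point is 1 array, and open symbols were not well above background. The knockdown arrays lie apart from NC for SMARCA4 (3960.2 and 4129 against 14026), both SMARCA2 probes, SMARCD1, BCL7A and SS18, and lie close to NC for most other probes. Signals of different probes are not comparable with each other.

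The targeted gene was read first, and here as in the rest values of the knockdowns are given with SMARCA4-KD1 before SMARCA4-KD2. The SMARCA4 probe (hg19 chr19:11172673-11172732, plus strand) gave a signal of 3960.2 and 4129 in the knockdowns and 14026 in NC. Both knockdown arrays were thus far below the NC array and close to each other. After each array was scaled to its 75th percentile, the log2 fold changes against NC were -1.91 and -1.80, leaving 26.6% and 28.8% of the NC level. The error of the mean change, propagated from the signal errors of the extraction software and not from replicates, was 0.18 on the log2 scale. Of all probes that passed the filter, 0.170% had a lower mean change than SMARCA4. PRMT1, the arginine methyltransferase named in the treatment field, had log2 fold changes of 0.27 and 0.37, with signals of 9801 and 10147 in the knockdowns and 7683 in NC. The probe of the gene named in the titles was thus below NC in both knockdowns, and that of the gene named in the treatment field was not.

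One of the siRNAs listed for SMARCA4 is shown because it defines the perturbation, with the strand as listed, written 5′ to 3′ in lower case.
SMARCA4 siRNA-1: ucgcuuugguucgcaaauc
It is 19 bases long, and no probe of the array contained it in full on either strand.

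SMARCA2, the alternative ATPase, was lower in both knockdowns as well. Its probe in hg19 chr9:2161718-2161777 had a signal of 25.4 and 31.1 in the knockdowns and 96.7 in NC, with log2 fold changes of -2.01 and -1.67. Its other probe, in hg19 chr9:2192841-2192900, had a signal of 44.1 and 59.1 in the knockdowns and 114 in NC, with log2 fold changes of -1.45 and -0.97. On both probes SMARCA4-KD1 was the lowest array and NC the highest. The errors of the mean changes were 0.22 and 0.20. Both probes were dim, and the share of all probes with a lower mean change was 0.181% for the first and 1.33% for the other. The longest run of bases shared by the SMARCA4 probe with a SMARCA2 probe was 6 bases for the first and 5 for the other. With normexp background correction, which adds an offset of 50 to each signal, the changes of the first probe were -1.01 and -0.89 and those of the other -0.78 and -0.57, the last being under 1.5-fold. SMARCA4 and SMARCA2 were thus both below NC, and no ATPase of these complexes was higher.

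Probes were called where both knockdowns were at least 1.5-fold to the same side of NC, with no test since each condition had 1 array. By this rule 4 of the 42 member probes were lower: that of SMARCA4, both of SMARCA2 and that of SS18. This was 9.52% of the member probes against 7.98% of all probes, and 7.32% of the member probes without SMARCA4. For higher probes the count was 2 of 42, those of SMARCD1 and BCL7A, or 4.76% against 6.58% of all probes. Counted by the brightest probe of each gene, 3 of 29 members were lower, against 8.03% of all genes, and 2 were higher, against 6.36%. The shares of members and of all probes or genes were thus near each other in both directions. In SMARCA4-KD1 alone, 9 of the 42 member probes were lower (21.4%), a larger share than the 12% of all probes. Without SMARCA4 these were 8 of 41. Only 3 of 42 were higher there, against 11.5% of all probes. In SMARCA4-KD2 alone, 6 of 42 were lower, against 9.83% of all probes, and 3 of 42 were higher, against 10.2%. Both comparisons share the NC array. Apart from the 6 called probes, 9 were at least 1.5-fold from NC in exactly 1 knockdown (21.4%, against 14.3% of all probes), and 27 were within 1.5-fold of it in both (64.3%, against 71.0%).

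SMARCD1, a core subunit that links the complex to transcription factors and the only SMARCD paralog known in ncBAF, was the core member furthest from NC. Its probe (hg19 chr12:50494275-50494334) had a signal of 3196 and 2622 in the knockdowns and 1196 in NC. Both knockdown arrays were above NC, with log2 fold changes of 1.33 and 1.1 and an error of the mean of 0.18. Its paralogs lay nearer to NC or below it. SMARCD3, the paralog known from heart and muscle, had a signal of 2049.9 and 2195 in the knockdowns and 3200.2 in NC, with log2 fold changes of -0.73 and -0.58. The second value lay just inside the limit of 1.5-fold, which is 0.58 on the log2 scale, so that SMARCD3 was called lower in SMARCA4-KD1 only. With quantile normalization it was called lower in both, at -0.78 and -0.62. SMARCD2, broadly expressed and required for granulocyte maturation, had log2 fold changes of 0.25 and 0.22. The 3 paralogs were therefore spread over both sides of NC, with SMARCD1 above, SMARCD2 slightly above and SMARCD3 below on both arrays.

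The remaining core subunits lay nearer to NC. SMARCB1, which contacts the nucleosome surface and is lost in rhabdoid tumours, was measured by a bright probe with log2 fold changes of -0.06 and -0.11. Its dimmer probe had a signal of 603 and 421 in the knockdowns and 682 in NC, with changes of -0.26 and -0.73. SMARCC1, a scaffold protein of the core, had changes of -0.37 and -0.19. Its paralog SMARCC2 lay above NC on both of its probes, with changes of 0.12 and 0.13 on one and 0.37 and 0.38 on the other. SMARCE1, the HMG-box subunit, had 0.02 and 0.13 on its brighter probe and -0.39 and -0.11 on its dimmer one. Of the 10 core probes, 7 were within 1.5-fold of NC in both knockdowns, as were 71.0% of all probes.

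The accessory proteins that sit with the ATPase covered the widest range of changes of any group here. BCL7A, a small subunit of the ATPase module first known from a lymphoma translocation, had a signal of 2095 and 1825 in the knockdowns and 683 in NC (hg19 chr12:122499758-122499817). Its log2 fold changes of 1.53 and 1.39 were the highest of all member probes, and 0.631% of all probes had a higher mean change. SS18, the subunit fused to SSX proteins in synovial sarcoma, had a signal of 609.7 and 645 in the knockdowns and 1137 in NC (hg19 chr18:23596913-23596972). Its log2 fold changes were -0.98 and -0.85, with 3.59% of all probes lower. For both genes the knockdown arrays lay close together and on the same side of NC. Their paralogs were nearer to NC: BCL7B had changes of 0.30 and 0.39, BCL7C of 0.17 and 0.14, and SS18L1, the neuronal paralog of SS18, of 0.00 and -0.06. ACTL6A, the actin-related partner of the ATPase, had changes of 0.26 and 0.27. Actin itself is a subunit too, and 1 ACTB probe had changes of 0.00 and -0.05 while the other had 0.08 and -0.78.

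**Figure D2:**
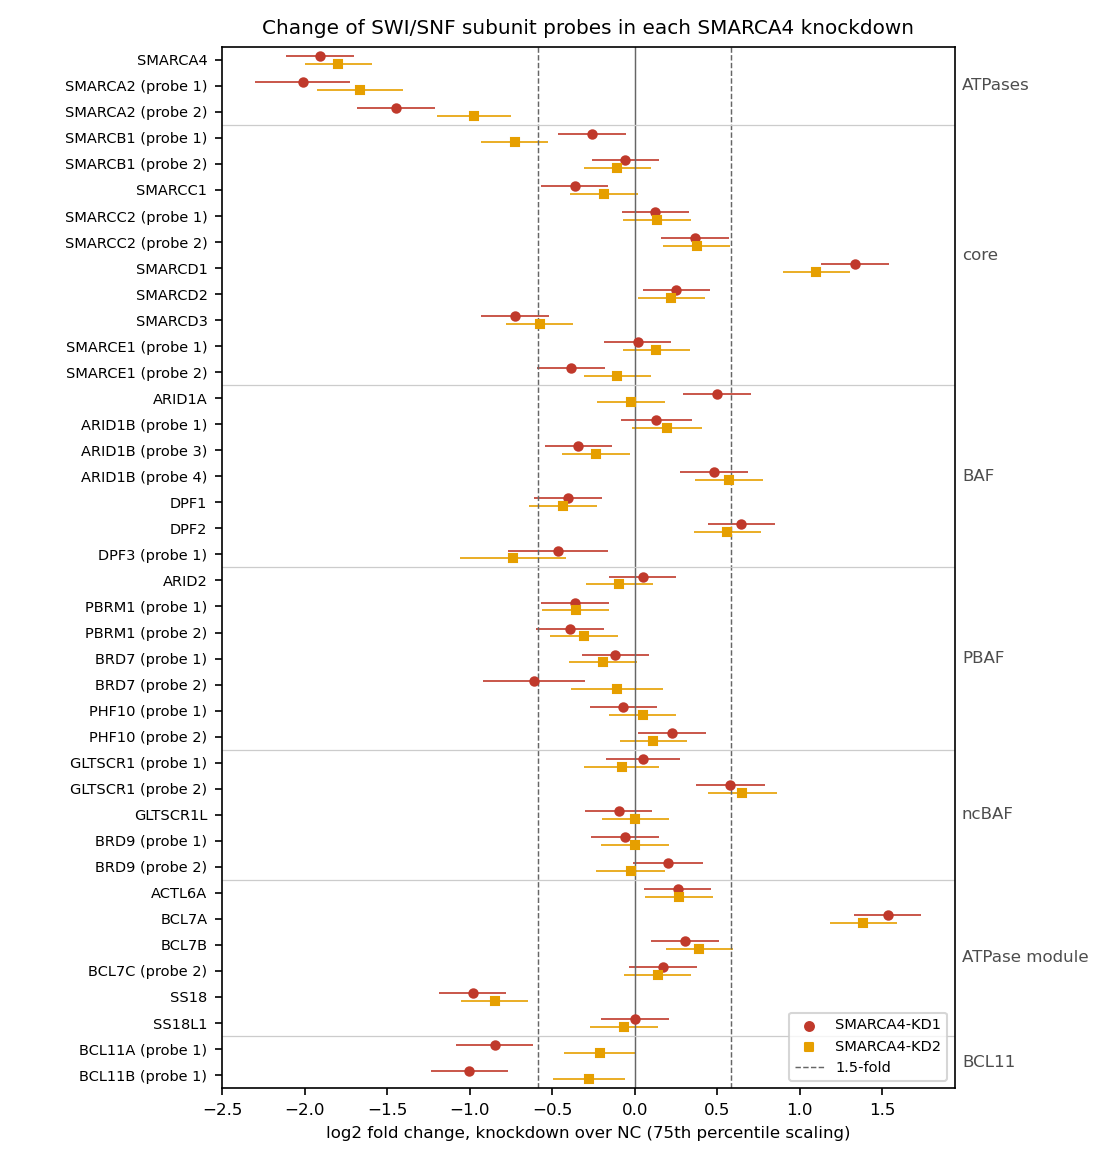
Log2 fold change against NC of the 40 member probes well above background on all arrays, in SMARCA4-KD1 (circles) and SMARCA4-KD2 (squares), grouped by role. Bars are the errors of the extraction software for the 2 arrays compared, not a spread between replicates, and dashed lines mark 1.5-fold. SMARCA4, SMARCA2 and SS18 lie left of the lines and SMARCD1 and BCL7A right of them on both arrays.

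Of the probes of genes that distinguish the complexes, 0 of 8 for BAF, 0 of 7 for PBAF and 0 of 5 for ncBAF were called by this rule. Of all probes, 7.98% were called lower and 6.58% higher. With so few probes, the absence of calls is not read as a trait of these subunits. Under other processing 1 probe each of DPF2 (normexp), GLTSCR1 (quantile normalization) and ARID1B (no floor) was higher in both. The changes of this ARID1B probe were then 1.19 and 0.74, but it was well above background in SMARCA4-KD1 only. Among the BAF subunits, DPF2, the widely expressed PHD-finger subunit, came closest from above. Its signal was 10190.5 and 9272 in the knockdowns and 6148 in NC, with log2 fold changes of 0.64 and 0.56. Its paralogs known from neurons and muscle were below NC: DPF1 had changes of -0.40 and -0.44, and DPF3, at a dim signal of 28.8, 23 and 37.5 (NC last), of -0.47 and -0.74. ARID1A, the DNA-binding subunit most often mutated in cancer, had a signal of 693 and 466 in the knockdowns and 463 in NC. Its changes of 0.50 and -0.02 placed SMARCA4-KD1 above both other arrays.

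The PBAF subunits stayed within 1.5-fold of NC in both knockdowns on 6 of 7 probes, as did 71.0% of all probes. ARID2, the DNA-binding subunit, had log2 fold changes of 0.05 and -0.09. PBRM1, which carries several bromodomains, was slightly below NC on both probes, with -0.36 and -0.36 on one and -0.39 and -0.31 on the other. PHF10, a PHD-finger subunit, had changes between -0.07 and 0.23 over its probes. BRD7, a bromodomain subunit, had -0.12 and -0.19 on its bright probe, and -0.61 and -0.11 on a probe with signals of 26.1, 35.7 and 37.6 (NC last). The ncBAF bromodomain subunit BRD9 had changes between -0.06 and 0.20 over its probes, and GLTSCR1L, one of the scaffold subunits of ncBAF, of -0.10 and 0.00.

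The BCL11 factors, zinc-finger transcription factors of blood and nerve cells that associate with BAF, differed between the knockdowns. BCL11B had a signal of 51.3 and 82.0 in the knockdowns and 97.0 in NC, with log2 fold changes of -1.0 and -0.28. BCL11A had a signal of 52.6 and 79.0 in the knockdowns and 89.5 in NC on its brightest probe, with changes of -0.85 and -0.21. On both genes SMARCA4-KD1 was the lowest array and SMARCA4-KD2 lay nearer to NC. Another BCL11A probe had a signal of 15.5 in SMARCA4-KD1, not well above background, against 47.0 in SMARCA4-KD2 and 34.7 in NC. In SMARCA4-KD1, where its level is only a limit, this probe was at least 2.18-fold lower, while its log2 fold change in SMARCA4-KD2 was 0.40.

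Agreement between the knockdown arrays was compared with the spread of all probes of like signal. Over all probes, the absolute difference between the knockdowns had a median of 0.14 and a 95th percentile of 0.67 on the log2 scale. Probes were sorted by mean signal into 10 bins of equal number, and the difference exceeded the 95th percentile of its bin for 4 member probes (9.52%, against 5.01% of all probes): those of ARID1A, BCL11B, the brightest probe of BCL11A and the dimmer probe of SMARCB1. The mean change against NC exceeded it for 15 member probes (35.7%), and for 26.6% of all probes. This yardstick compares arrays on 1 slide, and says nothing of the spread between NC cultures. A further NC array named in the methods was not analysed here.

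**Figure D3:**
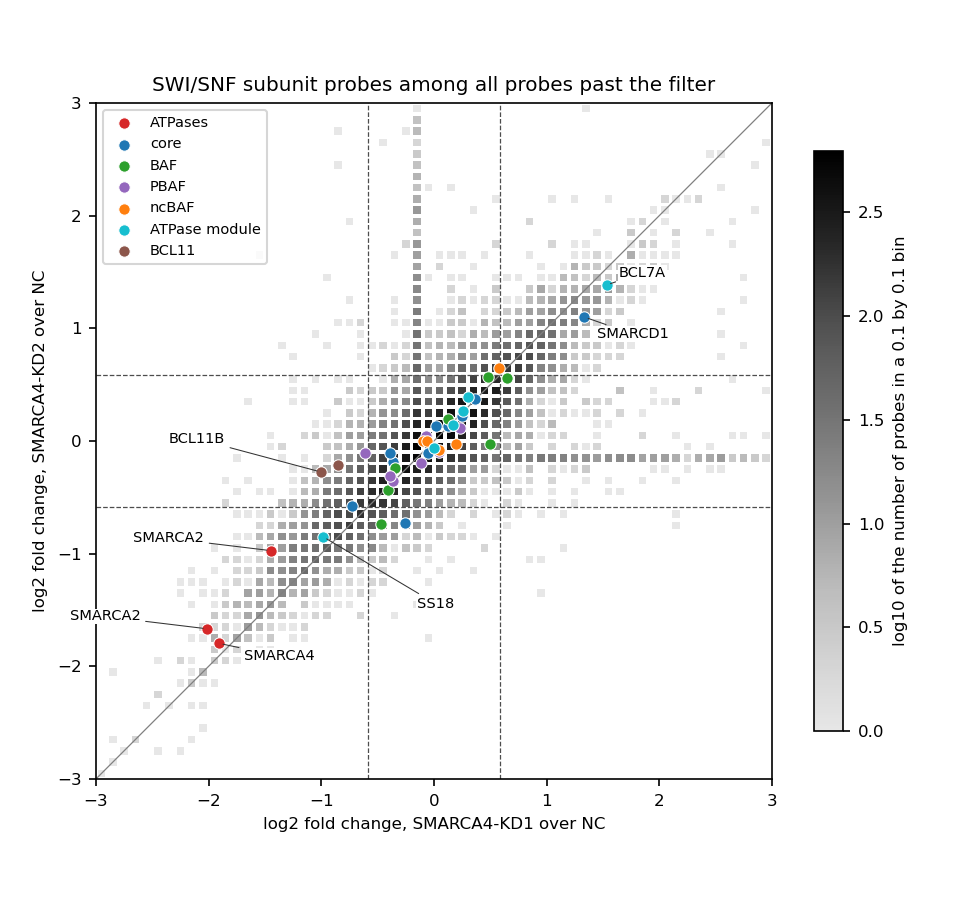
Log2 fold change in SMARCA4-KD2 against that in SMARCA4-KD1, both over the same NC array, for all probes past the filter (grey, log10 number of probes per bin) and for the 40 member probes well above background on all arrays (coloured by role). Dashed lines mark 1.5-fold, and the horizontal and vertical grey streaks are probes set to the lowest signal well above background on 1 knockdown array and NC. Most members lie in the central square, with SMARCA4, SMARCA2 and SS18 at the lower left and BCL7A and SMARCD1 at the upper right, while BCL11B lies beside the square.

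Where a gene had several probes well above background on all arrays, which was so for 10 genes and 21 probes, the mean changes of its probes were compared. They lay on 1 side of 0 for SMARCA2, SMARCB1, SMARCC2, PBRM1 and BRD7, and on either side for SMARCE1, ARID1B, PHF10, GLTSCR1 and BRD9. Probes on either side of 0 were at least 1.5-fold apart for ARID1B and GLTSCR1, although 1 GLTSCR1 probe was near 0, with a mean change of -0.02 and an error of 0.20 from the signal errors. For ARID1B, the paralog of ARID1A, the probe in hg19 chr6:157531787-157531846 had a signal of 299 and 306 in the knockdowns and 202 in NC, with changes of 0.48 and 0.57. The probe in hg19 chr6:157529022-157529081 had a signal of 475 and 493 in the knockdowns and 568 in NC, with changes of -0.34 and -0.24. One ARID1B probe was thus above NC and the other below it on both knockdown arrays, 0.81 apart on the log2 scale. A probe further upstream had signals of 124, 125 and 106.96 (NC last), with changes of 0.13 and 0.19, and the last ARID1B probe was well above background in SMARCA4-KD1 only.

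For GLTSCR1, the scaffold subunit that defines ncBAF together with BRD9, the probe in hg19 chr19:48206465-48206524 had a signal of 176 and 179 in the knockdowns and 111 in NC. Its log2 fold changes were 0.58 and 0.65, the first just under 1.5-fold. The probe in hg19 chr19:48205351-48205410 had a signal of 80.9 and 71.4 in the knockdowns and 73.8 in NC, with changes of 0.05 and -0.08. The probes thus differed by 0.63 in mean change, with 81.7% G and C bases in the one near NC and 25.0% in the other. No direction is therefore given for ARID1B or GLTSCR1 as genes. The exons that the probes address were not analysed here, since no annotation of hg19 was used.

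Over all 42 probes, the median of the mean log2 fold change was -0.04, and -0.03 without SMARCA4, against 0.03 for all probes. Below NC in both knockdowns were 19 probes (45.2%, against 39.3% of all probes), above it in both 14 (33.3%, against 41.2%), and on either side 9. The other chromatin remodelers were CHD, ISWI, INO80, SRCAP and NuRD subunits and some remodelers outside these families. Of their 76 probes the median was 0.04, with 4 lower and 2 higher in both knockdowns. These were 5.26% and 2.63%, against 7.98% and 6.58% of all probes. Among these, the NuRD ATPase CHD4 had changes of -1.59 and -1.35 and its paralog CHD3 of -1.24 and -0.85. SRCAP, an ATPase that deposits a histone variant, had -0.70 and -1.35. The higher probes were both of the NuRD subunit GATAD2A, with 1.2 and 1.13 on one and 0.96 and 0.89 on the other. Of 35 probes of Polycomb repressive complexes, the classical opponents of SWI/SNF, the median was 0.02. The AEBP2 probe was lower at -1.09 and -0.98, and 1 PCGF3 probe was higher at 1.42 and 1.31. Each was 2.86% of the Polycomb probes, against 7.98% of all probes lower and 6.58% higher. The other PCGF3 probe had changes of -0.32 and 0.01, so no direction is given for PCGF3 as a gene. The medians of the members and of these lists lay within 0.1 of each other.

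**Figure D4:**
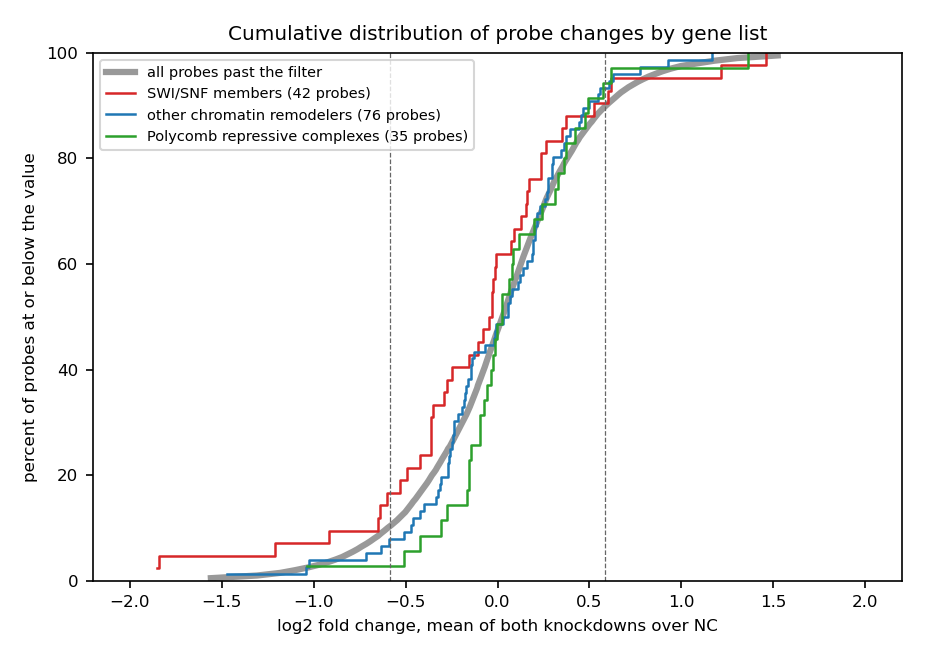
Cumulative share of probes, in percent, by the mean log2 fold change of both knockdowns over NC, for the 42 SWI/SNF probes, 76 probes of other chromatin remodelers, 35 Polycomb probes and all probes past the filter. Dashed lines mark 1.5-fold. The SWI/SNF curve runs to lower values at its left end, where SMARCA4 and SMARCA2 lie, and all curves cross the middle near 0.

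Both knockdowns were also set against NC in 1 limma fit, which takes the knockdowns as replicates of 1 condition although they are not. It has 1 residual degree of freedom and assumes for NC the spread seen between the knockdowns. After adjustment over 29334 probes by Benjamini-Hochberg, limma called 0 member probes and 0 probes in all (0%), and the lowest adjusted p of a member was 0.10. At an unadjusted p of 0.05 limma had 15 member probes, 7 lower, where 14.2% of all probes were, and 8 higher, where 15.9% were. A t-test of both knockdowns against NC, at the 1.5-fold and p limits of the methods, called 0 member probes. The methods name no test for these limits. This t-test too has 1 residual degree of freedom, so that even a large change can hardly reach the p limit. Nothing is concluded from it, with or without adjustment. When the filter asked for a signal well above background on all 3 arrays, limma called 12 of 40 member probes, against 26.6% of all probes. The 6 lower ones were those of SMARCA4, SMARCA2 (both), SMARCD3, PBRM1 and SS18, and the 6 higher ones those of SMARCC2, SMARCD1, ARID1B, DPF2, GLTSCR1 and BCL7A. Such calls weigh each change against the difference between the knockdown arrays and not against a spread between cultures or slides. The calls include the effect of the slide, if there is one.

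The 250 bases upstream of the start of the 5 called genes, from RefSeq on GRCh38.p14, are shown because these genes were apart from NC in the same way in both knockdowns. They are written 5′ to 3′ on the strand of the gene, in lower case. Capitals mark GC boxes (GGGCGG) and CCAAT boxes (CCAAT) on either strand.
SMARCA4, chr19:10960780-10961029, plus strand: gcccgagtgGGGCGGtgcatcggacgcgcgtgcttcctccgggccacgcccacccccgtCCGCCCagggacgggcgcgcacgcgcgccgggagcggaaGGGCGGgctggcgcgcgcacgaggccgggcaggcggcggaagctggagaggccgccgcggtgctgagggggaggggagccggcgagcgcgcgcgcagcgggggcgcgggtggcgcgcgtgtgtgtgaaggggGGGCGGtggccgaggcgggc
SMARCA2, chr9:2015097-2015346, plus strand: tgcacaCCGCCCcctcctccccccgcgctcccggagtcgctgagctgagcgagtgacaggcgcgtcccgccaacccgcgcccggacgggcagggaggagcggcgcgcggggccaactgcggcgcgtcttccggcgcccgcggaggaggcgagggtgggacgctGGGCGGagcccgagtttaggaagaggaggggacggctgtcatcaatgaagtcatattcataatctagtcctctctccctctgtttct
SS18, chr18:26091220-26091469, minus strand: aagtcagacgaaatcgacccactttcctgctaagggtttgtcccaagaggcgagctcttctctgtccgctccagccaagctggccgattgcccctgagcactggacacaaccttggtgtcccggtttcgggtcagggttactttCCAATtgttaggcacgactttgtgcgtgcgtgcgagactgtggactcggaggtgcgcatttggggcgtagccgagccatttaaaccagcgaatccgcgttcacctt
SMARCD1, chr12:50085092-50085341, plus strand: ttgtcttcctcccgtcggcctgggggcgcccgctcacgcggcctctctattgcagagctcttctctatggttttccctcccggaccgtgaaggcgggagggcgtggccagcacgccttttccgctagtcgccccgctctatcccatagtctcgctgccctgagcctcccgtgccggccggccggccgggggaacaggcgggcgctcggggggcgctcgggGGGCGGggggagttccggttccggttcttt
BCL7A, chr12:122021634-122021883, plus strand: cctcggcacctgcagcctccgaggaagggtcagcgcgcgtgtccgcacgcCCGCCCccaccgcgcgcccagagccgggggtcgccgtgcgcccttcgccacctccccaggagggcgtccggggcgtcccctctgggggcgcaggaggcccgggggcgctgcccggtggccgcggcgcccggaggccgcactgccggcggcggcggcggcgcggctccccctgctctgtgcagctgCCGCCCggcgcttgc
The share of G and C bases in these stretches ran from 56.4% in SS18 to 82.4% in SMARCA4 and BCL7A. The GC box, the letters bound by SP1-type factors, occurred 4 times in SMARCA4, 2 times in SMARCA2, 2 times in BCL7A and 1 time in SMARCD1, and the SS18 stretch held 1 CCAAT box and no GC box. So genes on both sides of NC held the GC box. A promoter was found for 26 of the 30 members. A GC box was in 16 of these 26 (61.5%), against 42.3% of 27305 promoters, and a CCAAT box in 12 (46.2%), against 33.0%. The AP-1 letters TGANTCA were in 1 member promoter, that of SMARCB1, against 6.60% of all, and the TATA box letters TATAAA in 1, that of GLTSCR1, against 11.1%. These are matches of letters and not measured binding.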

How the data were processed

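Total RNA of HCT116 cells was measured on 3 Agilent SurePrint G3 1-colour arrays, 1 per condition. For each spot the deposited scanner files give an intensity, background-subtracted by the authors with Agilent Feature Extraction 10.7.1.1 and not normalized between arrays. The deposited series-level table holds an intensity within 0.1% of this signal for 57870 of 57871 probes with 1 spot. Other deposited columns were used as given: flags, coordinates, and the error of each signal as a score of the extraction software.

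Control and outlier-flagged spots were left out, repeated spots were averaged, and log2 of the processed signal was centred on the 75th percentile of the array's non-control probes. Values not well above background were raised to the lowest value well above background on their array where they lay under it. Probes were kept if any array had them well above background. Such a limit was written as "at least" where only 1 side was measured. Each probe was one unit, and for a gene the brightest probe was taken. Positions (hg19) and gene names are those of the files. No exon annotation was used. The sequence of the other siRNA is not reported here. Upstream sequences came from RefSeq (GRCh38.p14).

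The limit for each knockdown over NC was 1.5-fold, the value in the methods. Both together were compared with NC by limma 3.58.1 (R 4.3.3) with a trend on intensity and adjustment by Benjamini-Hochberg over all kept probes. The methods give limits of 1.5-fold and a p of 0.01 with no named test for the arrays, so a t-test of both knockdowns against NC was run at these limits on the same values. The number of arrays limits the precision. Counts and figures used Python 3.11.15, numpy 2.4.6, pandas 2.3.3 and matplotlib 3.10.9. Scripts were tested on simulated data.

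All members were named, with values on every array for SMARCA4, SMARCA2, members apart from NC in both knockdowns, and members with probes on either side of 0 and at least 1.5-fold apart. Others are given by their changes, with signals added where the knockdowns or the signal level set them apart, as chosen after the values were seen. At most 4 genes were named per comparison list. The members and lists were chosen with earlier results of these data known. The alternatives were the percentile taken from the probes that all 3 arrays detected, quantile normalization, normexp, the series-level table, other filters, no floor, genes for probes, 2-fold, and limma without a trend or adjustment.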

Additional observations from a re-analysis of the deposited data

How the results depend on the processing

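SMARCA4 stayed between -1.95 and -1.77 (mean log2 fold change of both knockdowns) under 6 alternatives, SMARCD1 between 1.17 and 1.22, BCL7A between 1.39 and 1.46 and SS18 between -0.97 and -0.85. For these genes, each with 1 probe well above background on all arrays, the series-level table, no floor and genes for probes could not move the values. The ranges thus come from the other scalings and normexp only. The brightest SMARCA2 probe, at -1.21, moved to -0.68 with normexp, and the mean over both SMARCA2 probes was -1.53. No called probe changed direction, whereas ARID1B, at -0.29 on its brightest probe, was 0.07 as the mean over its probes. The probes lower in both knockdowns, 4 as reported, were 3 to 5 under other scalings. At a 2-fold limit they were 2 (4.76%, against 2.0% of all probes), those of SMARCA4 and 1 of SMARCA2. The probes higher in both, 2 as reported, were 2 or 3. At 2-fold, 7 probes were apart in SMARCA4-KD1 (16.7%, against 6.97%) and 4 in SMARCA4-KD2 (9.52%, against 5.25%), in place of 12 and 9. These counts include the targeted SMARCA4, and that of SMARCA4-KD1 also a BCL11A probe not well above background there. The median without SMARCA4, -0.03, was -0.082 with the percentile taken from the probes that all arrays detected, -0.064 with quantile normalization, -0.0044 with normexp and -0.11 without a filter, where the median of all probes was -0.15 in both knockdowns. Without a filter, the median value sits at the lowest detected level, which is lower on the knockdown arrays than on NC, and changes there are relative to that shift. The count of limma calls among members depended most on the processing. It was 0 as reported, 7 with quantile normalization, 8 with normexp, 10 with the series-level table, 12 with the filter on all 3 arrays, 27 with no filter, 15 at an unadjusted p and 9 with no floor, the last chosen after seeing the data. Over all probes limma called 0, 3213 with quantile normalization, 4219 with normexp, 4643 with the series-level table, 6733 with the filter on all arrays, 42037 without a filter and 4351 with no floor. The cause was not tested. The t-test with Benjamini-Hochberg adjustment, also chosen after seeing the data, called 0 members. No paired analysis was possible because each condition had 1 array. Dim probes of SMARCA2, DPF3, GLTSCR1, BCL11A and BCL11B were among those that moved nearer to 0 with normexp. An offset of 50 draws the change of any dim probe toward 0, so nothing is concluded from this move.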
